A study of Mus musculus with 2 samples.

Results

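The 5 kainate receptor subunits and the 2 NETO auxiliary proteins were followed on 2 single-colour arrays of mouse hippocampal cultures, 1 from a TTX culture and 1 from a control culture. The members were every non-control probe that the array names Grik1, Grik2, Grik3, Grik4, Grik5, Neto1 or Neto2, which gave 12 probes for 7 genes out of 55681 probes in all. Both cultures were ICR hippocampal cells taken at embryonic day 16.5, grown in 5.5% serum with 5 µM Ara-C against dividing glia, and harvested at 12 days in vitro. The TTX culture was kept in tetrodotoxin, which blocks sodium channels and so stops action potentials, for the last 2 days, at 2 µM in the series' design text and at 2 mM in the source name. There was 1 array per culture and no replicate, so no difference below carries a test, and an error beside a value covers the spot on its array and not the spread between cultures. RNA came from whole dishes, so fewer cells of a type and less RNA per cell cannot be told apart.

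Kainate receptors are glutamate-gated cation channels built from 4 subunits. GluK1, GluK2 and GluK3 (genes Grik1 to Grik3) can form channels by themselves and bind kainate with low affinity, whereas GluK4 and GluK5 (Grik4 and Grik5) bind it with high affinity and reach the surface as working receptors only together with a low-affinity subunit. NETO1 and NETO2 are single-pass membrane proteins with CUB domains that bind the receptor and slow its gating. In hippocampus, kainate receptors are known for slow synaptic currents at mossy fibre synapses on CA3 cells, for presynaptic control of release and for GluK1 in interneurons.

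Signals are given after quantile normalization between the arrays, on a linear scale, and differences are log2 of TTX over control. A probe was called measured where its spot was well above background on both arrays, by Feature Extraction's own flag, and 11 of the 12 probes were. The probes are 60 bases long, and 30 bases of each are shown for the 5 subunits because the position a probe reads within its transcript bears on how its values compare with those of a gene's other probe. Each line gives the 5′ end of the probe as the array files hold it, and capitals mark runs of 4 or more identical bases.
Grik1, row 67: gctcacatagatattacttgaggagtgaaa
Grik1, row 239: ttccttatattagcAAAAtgtacagacatt
Grik2, row 271: aaatacagagaatacccaagtctcctccat
Grik2, row 280: tagAAAAtatacatcaaGGGGtcttaggat
Grik3, row 179: attaTTTTccTTTTTaagacactgtgatat
Grik3, row 271: tcttgtctatggctttctgaagctgtgaag
Grik4, row 380: gccgagagagcagtccaagaattgatggtg
Grik5, row 279: ttctctcTTTTTTGGGGGGagaaacctcag
The row is the line of the array, of 384, on which the spot was printed. The Grik5 probe holds a run of 6 T followed by 6 G, and the measured Grik3 probe has the lowest share of G and C of the 12 probes.

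Of the 7 genes, 6 had a higher signal in the TTX culture at their brightest measured probe and Grik4 had a lower one. The low-affinity subunit Grik3 was furthest from 0 and was the only gene past the 2-fold size rule. Grik1 came next, then Grik5, while Grik2, Neto1 and Neto2 lay close together at a smaller size. At 2-fold, 1 of 7 genes was higher and 0 of 7 were lower, where 2.09% and 3.40% of the 14016 measured genes were. Of the 11 measured probes, 1 was at least 2-fold higher and 0 were lower by as much, against 2.13% and 2.80% of all 27398 measured probes. At 1.5-fold, 2 of 7 were higher, against 7.66% of measured genes, and 0 of 7 were lower, against 8.64%. These 2 were Grik3 and Grik1, and Grik1 no longer passed with the normexp background correction (0.46) or as the mean over its probes (0.48). Above 0 stood 6 of 7, against 51.1% of measured genes, and the members' median was 0.25, against 0.01 for all measured genes. That median was 0.39 with the mean over each gene's probes and 0.18 with spike-in scaling.

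**Figure D1:**
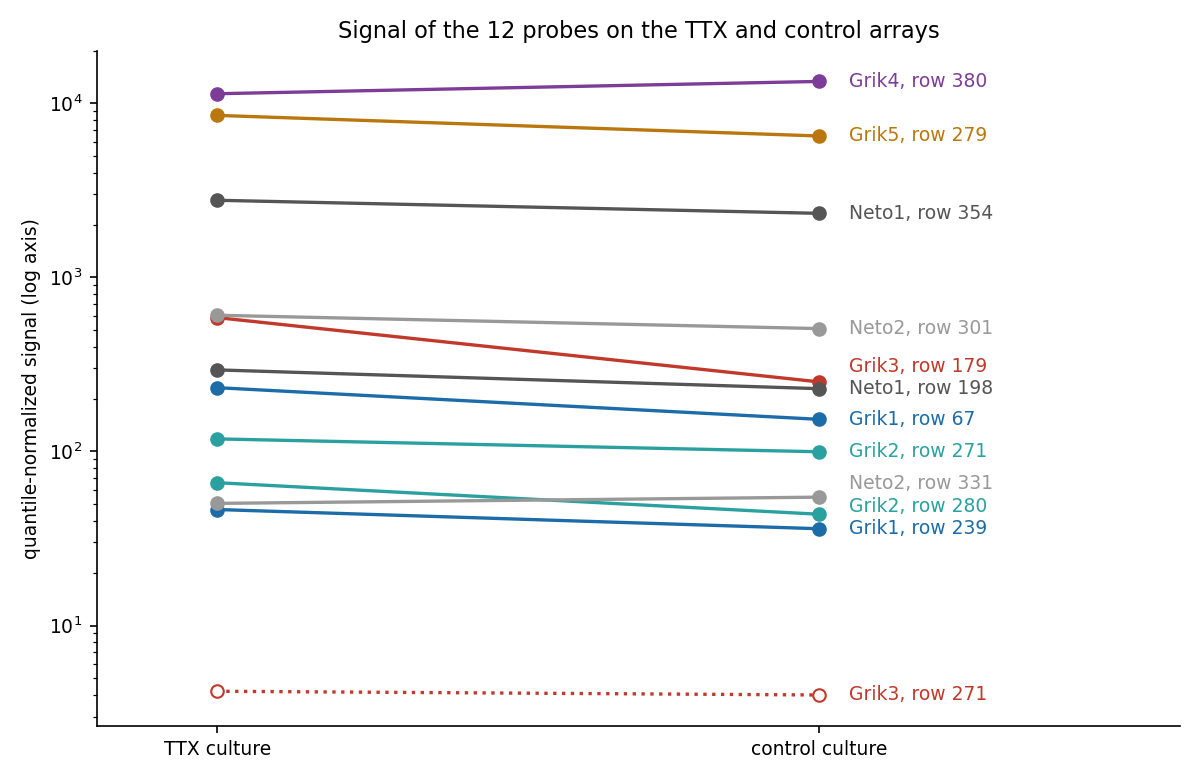
Quantile-normalized signal (log axis) of each of the 12 probes on the TTX array (left) and the control array (right), labelled by gene and array row; the open points are the Grik3 probe that was not well above background on either array. The Grik3 probe in row 179 has the steepest line, with 587 on TTX and 251 on control.

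Among the low-affinity subunits, Grik3, which encodes GluK3, had a signal of 587 in the TTX culture and 251 in the control culture at the probe in row 179. This was a difference of 1.23 ± 0.21 (Feature Extraction's error of the log2 difference), or 2.34-fold. The value lies well outside that error, and 1.26% of measured genes had a higher difference. The gene's other probe, in row 271, was not well above background on either array, with signals of 4.19 in the TTX culture and 3.99 in the control culture, and gives no fold. Both probes were designed to 1 transcript, NM_001081097, at positions 8741 and 2957. The distance between them is 5784 bases in the transcript and in the genome alike, so no intron separates them. They lie on the plus strand of chromosome 4 at chr4:125391317-125391376 and chr4:125385533-125385592 (mm9). The difference of Grik3 therefore rests on 1 probe, the one further towards the 3′ end, and why the other stayed at background was not tested.

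Grik1 encodes GluK1, and both of its probes were brighter in the TTX culture. The probe in row 67 had a signal of 232 in the TTX culture and 153 in the control culture, a difference of 0.60 ± 0.21. The dimmer probe in row 239 had 46.4 in the TTX culture and 36.0 in the control culture, a difference of 0.37 ± 0.29. The gap between the 2 differences, 0.24, was smaller than its error of 0.36, so the probes cannot be told apart in this respect. The first targets the RefSeq transcript NM_146072 at chr16:87896231-87896290 (mm9, minus strand), and the second the Ensembl transcript ENSMUST00000114137 at chr16:87912812-87912871, which is 16581 bases upstream.

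Grik2 encodes GluK2, the subunit that most hippocampal principal cells use. Its brighter probe, in row 271, had 118 in the TTX culture and 99.6 in the control culture, a difference of 0.25 ± 0.22. The dimmer probe in row 280 had 66.1 in the TTX culture and 43.6 in the control culture, a difference of 0.60 ± 0.26. The brighter one therefore differed by about its own error, and the dimmer one by more. The first reads position 1258 of NM_001111268 (chr10:49243534-49243593, minus strand, mm9) and the second position 4815 of NM_010349 (chr10:48819269-48819325), 424265 bases apart in the genome. The gap between the 2 differences, 0.36, was about the size of its error of 0.34. The measured probes of Grik1, Grik2 and Grik3 were higher in the TTX culture at 5 of 5, where 52.3% of all measured probes were. Probes of 1 gene share their RNA and are not replicates.

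**Figure D2:**
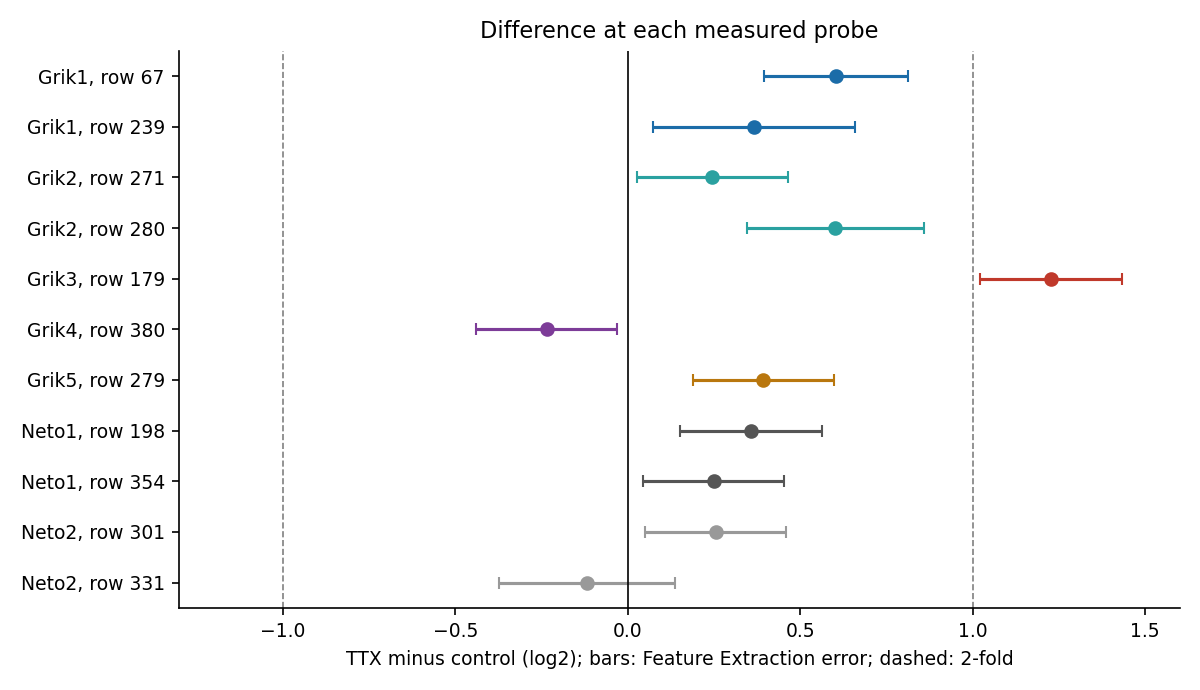
Difference between the TTX and control arrays (log2) at the 11 measured probes, with bars of 1 Feature Extraction error and dashed lines at 2-fold. Grik3 in row 179 is at 1.23, past the line, and the Grik4 probe at -0.23 and the dimmer Neto2 probe at -0.12 are left of 0.

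The high-affinity subunits stood on opposite sides of 0. Grik4, which encodes GluK4, a subunit concentrated in CA3 and dentate granule cells of the adult hippocampus, had 11344 in the TTX culture and 13349 in the control culture, a difference of -0.23 ± 0.20. Grik5, which encodes the widely expressed GluK5, had 8517 in the TTX culture and 6487 in the control culture, a difference of 0.39 ± 0.20. The difference of Grik5 minus that of Grik4 was 0.63, with an error of 0.29. Each gene had 1 probe, at chr9:42328570-42328629 for Grik4 and chr7:25794943-25795002 for Grik5, both on the minus strand (mm9). For probes this bright the spots of 1 probe printed several times on the arrays differed with an SD of 0.06. Among probes as dim as Grik1 in row 239 and Grik2 in row 280 that SD was 0.31, above the errors of 0.29 and 0.26 given for them. Such scatter lies within the 2 arrays and does not cover the spread between cultures. The Grik5 value was the one that moved most with the scaling. It was 0.24 with 75th percentile scaling or with none, and 0.18 when the arrays were scaled on the spike-in controls. Grik4 was at -0.36, -0.37 and -0.42 under the same settings, in that order.

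The auxiliary proteins differed little. Neto1 had 2772 in the TTX culture and 2332 in the control culture at its probe in row 354, a difference of 0.25 ± 0.20. Its other probe, in row 198, had 294 in the TTX culture and 229 in the control culture, a difference of 0.36 ± 0.21. Both Neto1 probes were thus brighter in the TTX culture by a similar amount, the gap of 0.11 being under its error of 0.29. They lie on the plus strand at chr18:86670386-86670445 and chr18:86672089-86672148 (mm9), and the second targets a cDNA clone, AK043710.

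Neto2 had 606 in the TTX culture and 508 in the control culture at the probe in row 301, a difference of 0.25 ± 0.20. Its dim probe in row 331 had 50.3 in the TTX culture and 54.6 in the control culture, a difference of -0.12 ± 0.25. The 2 probes of Neto2 thus had opposite signs, the brighter one a little more than its error from 0 and the dim one less than its error. Both target NM_001081324, 2808 bases apart in the transcript and in the genome, at chr8:88161508-88161567 and chr8:88164316-88164375 (minus strand, mm9), with no intron between them. The mean over both probes was 0.07. At their brightest probes the differences of Neto1 and Neto2 were within 0.01 of each other, with an error of 0.29. They lay further apart under other scalings. Neto1 was at 0.13 and Neto2 at 0.24 with 75th percentile scaling, and at 0.07 and 0.18 with spike-in scaling.

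Set against the array's own error, the 95% interval of the difference left out 0 at 3 of the 11 measured member probes, which were Grik3 in row 179, Grik1 in row 67 and Grik2 in row 280. All were higher in the TTX culture. With normexp the Grik2 probe in row 280 was at 0.26, about its error, and no longer passed, whereas with spike-in scaling Grik4 (-0.42) narrowly did. Of all measured probes 13.2% were higher and 12.4% lower by that measure, so 25.7% of all measured probes pass it. Grik5 missed it narrowly, with an interval from -0.01 to 0.79, and that of Grik4 ran from -0.63 to 0.17. Of the 11 probes 9 were above 0, against 52.3% of all measured probes.

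**Figure D3:**
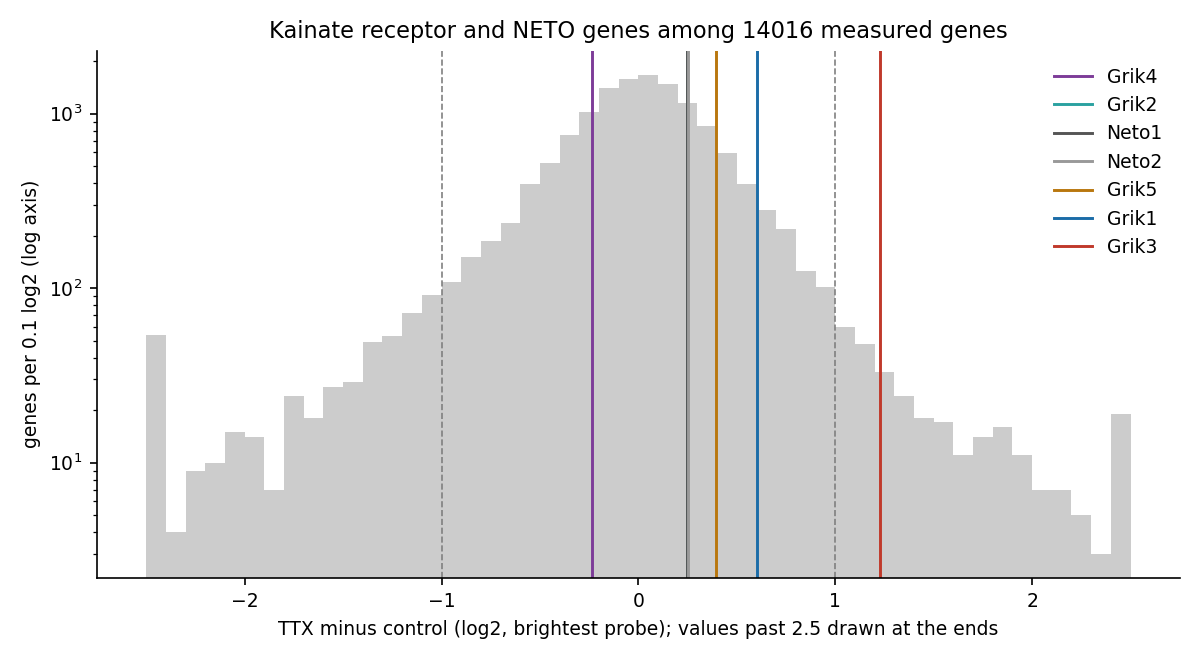
Distribution of the TTX minus control differences (log2, brightest probe) of the 14016 measured genes, with the 7 genes as coloured lines and dashed lines at 2-fold; counts per 0.1 log2 are on a log axis, and the outermost bars also hold all values beyond the axis. Grik3 stands in the upper tail, where 1.26% of genes were higher, and Grik2, Neto1 and Neto2 nearly coincide at 0.25.

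The share of measured genes with a higher difference places each member. It was 7.13% for Grik1, 14.8% for Grik5, 23.9% for Neto2, 24.3% for Neto1 and 24.7% for Grik2. For Grik4, 24.7% of genes had a lower difference. Apart from Grik3, then, no member was in the outer 5% of genes in its direction. In the order Grik3, Grik1, Grik5, Neto2, Neto1, Grik2 and Grik4, the gap was widest at the top, where Grik3 stood 0.62 above Grik1, with an error of 0.29. The next widest was at the bottom, where Grik2 stood 0.48 above Grik4, with an error of 0.30. The steps in between, 0.21 or less, were all smaller than their errors.

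The position of each spot on the array was taken into account as an alternative. The 12 spots lay between rows 67 and 380. After subtracting the median of probes of like signal in the same block of 48 rows, Grik3 was at 1.16, Grik1 at 0.60 and 0.37, Grik2 at 0.30 and 0.63, Grik4 at -0.27 and Grik5 at 0.37. The medians subtracted ran from -0.06 to 0.06, and no measured member probe changed sign.

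AMPA and NMDA receptors were measured on the same arrays. Kainate receptor subunits had a median of 0.39 with 4 of 5 above 0, where 51.1% of all measured genes were. AMPA receptor subunits, which carry most fast excitatory current, had a median of 0.08 with 4 of 4 above 0, and Gria3 was highest at 0.74 (signals of 1389 in the TTX culture and 829 in the control culture). The AMPA median changed sign with scaling on the spike-in controls, to -0.05. NMDA receptor subunits, the calcium-permeable coincidence detectors, had a median of -0.13 with 3 of 7 above 0, and that median was as near 0 as -0.02 with normexp. Their lowest member was Grin3a (-0.87), and the obligatory subunit Grin1 (-0.47) and the subunit Grin2d (0.46) were the next furthest from 0. No AMPA or NMDA receptor subunit passed 2-fold at its brightest probe, where 2.09% of all measured genes were higher and 3.40% lower by as much. The other Grin3a probe was at -1.27, however, and no test of the families against each other was made.

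Proteins that bind, position or modify kainate receptors gave small differences on both sides. All 15 listed interactors were measured, 10 above 0 and 5 below, with a median of 0.19, where 51.1% of all measured genes were above 0. At 2-fold 0 of 15 passed, where 2.09% of all measured genes were higher and 3.40% lower. The median depended on the scaling and the probe summary: it was 0.01 with spike-in scaling, 0.07 with no normalization, 0.08 with 75th percentile scaling and 0.07 with the mean over probes. Klhl24, a BTB-kelch protein that binds GluK2, was highest at 0.63 (322 in the TTX culture and 208 in the control culture). C1ql2, a secreted C1q-like protein that recruits kainate receptors at mossy fibre synapses, was at 0.56 (501 in the TTX culture and 339 in the control culture). The PDZ protein Pick1 was lowest at -0.56 (679 in the TTX culture and 1001 in the control culture), and its second probe was at -0.22. C1ql2, which is also on the dentate granule and CA3 list, and its mossy fibre partner C1ql3 (0.19) were both above 0.

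Of the 7 RNA-editing and SUMO-pathway genes, 6 were measured, 5 above 0 and 1 below, with a median of 0.20. Above 0 stood 51.1% of all measured genes. Adarb1, the editing enzyme ADAR2 that recodes the pore site of GluK1 and GluK2, was lowest at -0.33 (8304 in the TTX culture and 10403 in the control culture). For the related enzyme Adar the brightest probe gave 0.44 and the second probe -0.09. The SUMO ligase Pias3 was highest at 0.96, from dim signals of 85.6 in the TTX culture and 44.1 in the control culture at a spot in row 17. Among the 32 measured genes of these lists, Pias3 (gap 0.27), Gria3 (gap 0.48) and Klhl24 (gap 0.60) had the differences nearest to that of Grik3, a likeness over 2 arrays that amounts to 1 value per gene.

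**Figure D4:**
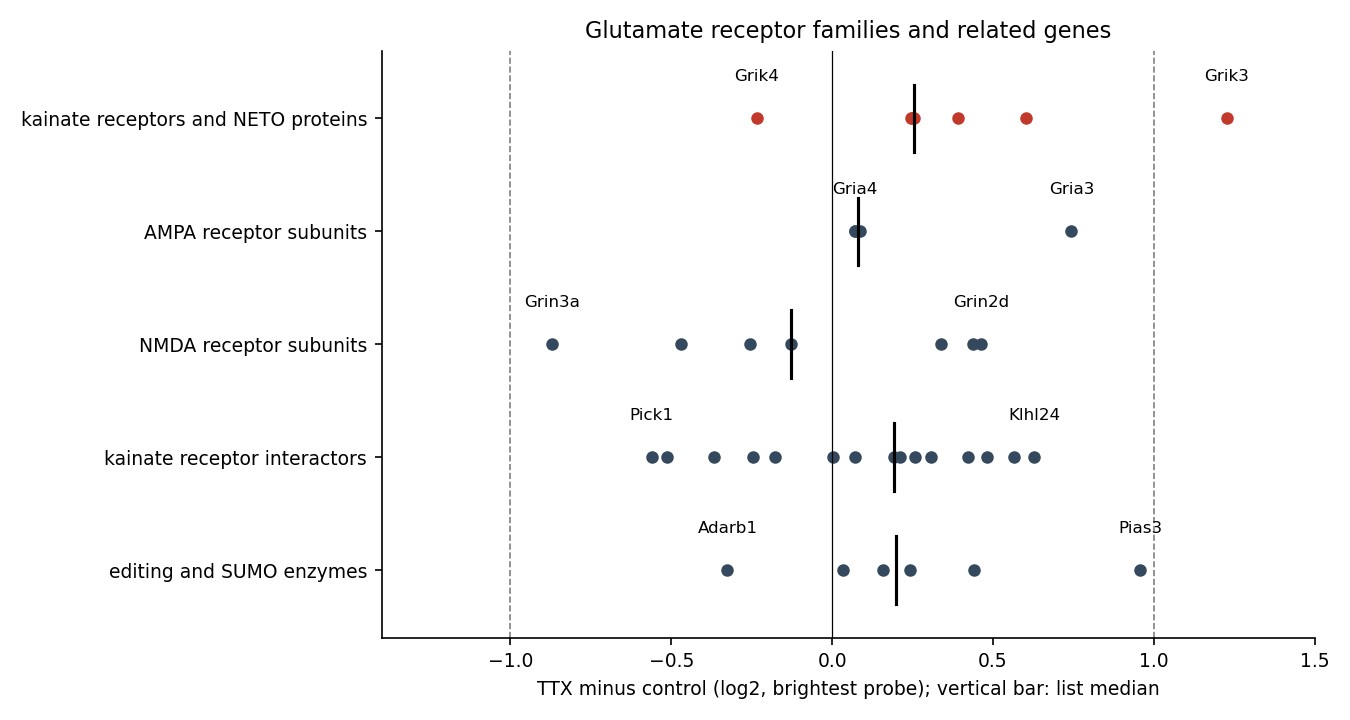
TTX minus control differences (log2, brightest probe) of the measured genes of the 5 lists of receptors, interactors and modifying enzymes, 1 point per gene, with the list median as a vertical bar and dashed lines at 2-fold; the lowest and highest genes are named. Grik3 at 1.23 is the only point of these lists past 2-fold, and the kainate list runs from Grik4 at -0.23 upwards.

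Cell type markers differed in both directions between the cultures, and 51.1% of all measured genes were above 0. Neuron markers were measured at 6 of 6, of which 2 were above 0, with a median of -0.40 and summed signals of 101615 in the TTX culture and 117042 in the control culture, and they ran from the neurofilament Nefm (-1.20) to Tubb3 (0.47). Excitatory neuron markers (6 of 6 measured, 2 above 0, median -0.38) ran from Neurod6 (-1.10) to Tbr1 (0.97), with sums of 20704 in the TTX culture and 25235 in the control culture. Inhibitory neuron markers (12 of 12, 4 above 0, median -0.15) ran from Npy (-1.60) to Calb2 (2.27), with sums of 66741 in the TTX culture and 88621 in the control culture. Dentate granule and CA3 markers were measured at 5 of 6, of which 3 were above 0, with a median of 0.48. Elavl2 was lowest at -0.33 and the dentate factor Prox1 highest at 1.02. The sums of this list were 5109 in the TTX culture and 5315 in the control culture, of which Elavl2 alone gave 3107 in TTX and 3919 in control.

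Glial lists were higher at their medians. Astrocyte markers (7 of 8 measured, 6 above 0) had a median of 0.24, sums of 55110 in the TTX culture and 45904 in the control culture, of which Aldoc alone gave 44061 in TTX and 38706 in control, and ran from Aldh1l1 at -0.14 to Gfap at 0.78. Microglia markers (6 of 8, 4 above 0) had a median of 0.26, ran from Csf1r at -0.36 to Tyrobp at 0.60 and had sums of 21331 in the TTX culture and 19215 in the control culture. A single Itgam probe gave 20323 of the TTX sum and 18173 of the control sum, the 3 Csf1r probes disagreed in sign (-1.08 to 0.27), Aif1 was dim (21.7 in the TTX culture and 22.5 in the control culture), and Cx3cr1 and P2ry12 were not measured. Of the oligodendrocyte precursor markers, Olig1 (0.78) and Cspg4 (0.52) were measured, with sums of 579 in the TTX culture and 347 in the control culture, while the defining markers Pdgfra, Sox10 and Olig2 were not measured on both arrays. The part of these lists in the values of Grik3 and the other members was not tested.

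**Figure D5:**
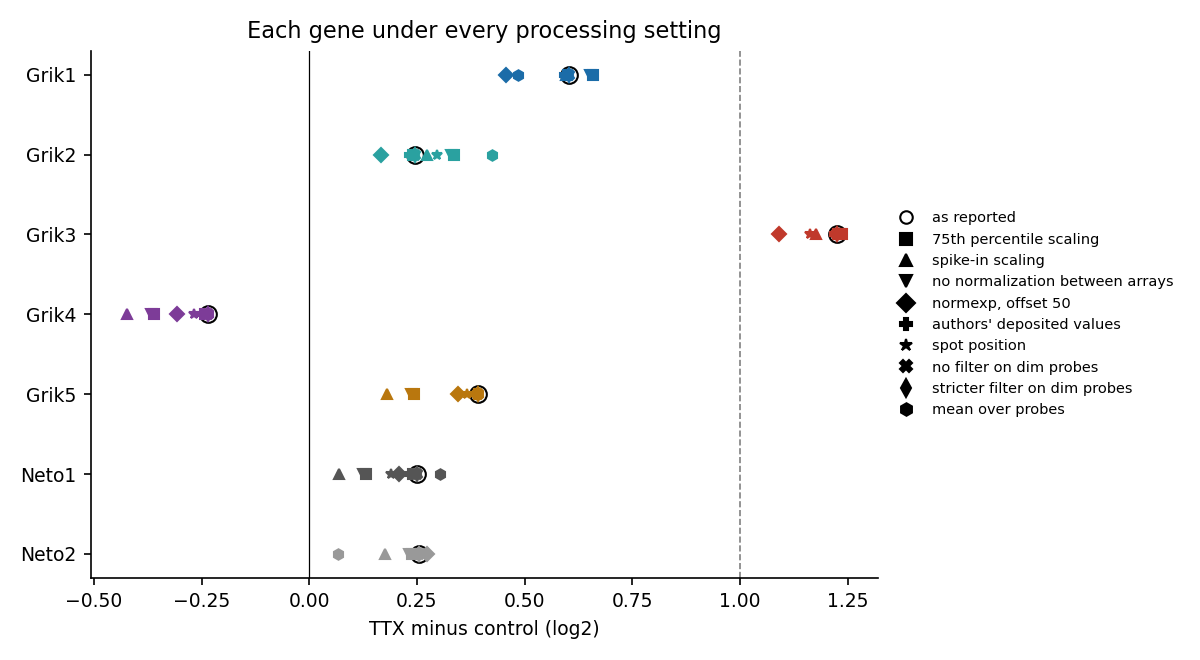
TTX minus control difference (log2) of each gene as reported (open circle) and under 9 processing alternatives (filled symbols), with a dashed line at 2-fold. All 10 values of Grik3 lie between 1.09 and 1.24, and no gene crosses 0. The filters on dim probes left every gene's value unchanged.

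The promoter windows of RefSeq (GRCm38.p6, 250 bases before to 50 after the start) hold entries for 5 of the 7 genes, in 6 windows: Grik2, Grik3, Grik4, Grik5 and Neto2. They were searched on both strands for TGACGTCA, the cAMP response element read by the activity-regulated factor CREB, and for its half-site TGACG, which the full element contains. The full element was in 0 of these 6 windows, and 1.79% of all 32851 windows hold it. The half-site was in the window of Grik2 alone, and 20.8% of all windows hold it. It is shown with 10 bases on either side, capitals marking the match as its reverse complement (chr10:49788744-49788768, GRCm38.p6, minus strand).
Grik2: tctccgccgcCGTCActtgcgctct
These matches are descriptions of the letters in the windows only.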

How the data were processed

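The deposited scanner output gives linear intensity for each spot. Its processed signal has the background removed, per the file headers, which name Feature Extraction 10.7.1.1 (9.5.1.1 in the submitters' processing notes). The deposited value table also holds intensity, quantile normalized per the design text, and its differences correlated with those computed here at 0.9999 over 27398 measured probes. Of 59305 non-control spots, 291 flagged as outliers were left out. Processed signals were quantile normalized and put on a log2 scale. A gene took its brightest measured probe. Names came from RefSeq symbols (GRCm38.p6), and probe coordinates are mm9. Exon and UTR annotation of mm9 was not used here.

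The TTX array had 52.2% of its spots flagged well above background and the control array 54.2%, with 0 saturated. The number of arrays limits the precision. Feature Extraction's error of a difference combines both spots' errors, and its median was 0.21. Both arrays carry 1 slide number.

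Members and lists were chosen with earlier results of these data known. The naming rule was all 7 genes with every probe, up to 3 extreme members of each list and the 3 nearest to the member furthest from 0. C1ql3 falls outside it and was chosen after its values were seen. Alternatives were 75th percentile, spike-in or no scaling, normexp (limma 3.58.1, offset 50), the authors' values, spot position, 3 probe filters or summaries, and other size rules. The steps were tested on simulated data. 1 list of related genes fixed for the comparison is not reported here. R 4.3.3 and Python 3.11.15 were used.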

Additional observations from a re-analysis of the deposited data

How the results depend on the processing

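Across 9 alternatives for each gene, Grik3 kept its side of 2-fold and ranged from 1.09 (normexp) to 1.24 (75th percentile scaling), Grik1 from 0.46 to 0.66, Grik2 from 0.17 to 0.42, Grik4 from -0.42 to -0.23, Grik5 from 0.18 to 0.39, Neto1 from 0.07 to 0.30 and Neto2 from 0.07 to 0.27. No gene changed sign, and 62 of the 63 gene values moved by less than their Feature Extraction error, the exception being Grik5 at 0.18 with spike-in scaling. Part of that count could not move. The filters on dim probes kept each gene's brightest probe and so gave the reported value for every gene. The mean over probes is the reported value for Grik3, Grik4 and Grik5, which have 1 measured probe each. The authors' values come from the same arrays and were also quantile normalized. Their differences correlated with those computed here at 0.9999, so they could hardly move either. The dim Neto2 probe changed sign, reaching 0.04 with 75th percentile scaling or none. A 1.5-fold rule gave 2 members higher and a 3-fold rule gave 0, by construction. Grik1 passes the 1.5-fold rule by little, and at 0.46 with normexp or 0.48 as the mean over probes it does not. At the Grik2 probe in row 280 normexp gave 0.26. The median of the AMPA receptor subunits changed sign with spike-in scaling (-0.05). Spike-in scaling moves the median of all genes to -0.09, from 0.01 as reported. Over all genes, normexp gave 148 higher and 301 lower at 2-fold, and no filter 1062 and 1368, against 293 and 476 as reported. No paired analysis was possible because each group has 1 array. The lowest processed signal well above background was 20.4 on the TTX array and 15.5 on control; the dim Grik3 probe had 4.69 on the TTX array and 3.49 on control, so no fold can be given for it.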

Other observations

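Probes under other names lie next to 2 of the genes, and both were brighter in the TTX culture, where 52.3% of all measured probes were. They were looked for after the members' values were seen, within 10000 bases of the span of each gene's probes. A probe named 4930590A17Rik lies between the 2 Grik1 probes on the same strand (chr16:87907362-87907421, mm9). Its signal was 124 in the TTX culture and 84.7 in the control culture, a difference of 0.54 ± 0.22, beside 0.60 and 0.37 at the Grik1 probes. A probe named C130030K03Rik, a symbol that RefSeq lists as a synonym of Grik2, lies beyond the dimmer Grik2 probe on the same strand (chr10:48813194-48813253, mm9). Its signal was 119 in the TTX culture and 85.5 in the control culture, a difference of 0.47 ± 0.22, beside 0.60 and 0.25 at the Grik2 probes. Their spots lay in rows 53 and 8. Whether these probes read transcripts of the receptor genes was not tested.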
